A study of Homo sapiens with 6 samples.

Results

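The complement and coagulation genes described here are a list of 51 symbols, chosen for the known function of the genes, among the 57781 rows of a table of RNA-seq read counts. They cover 17 complement components, 6 complement regulators, 11 clotting factors including kininogen, 2 receptors cleaved by thrombin or related proteases, 4 genes of the fibrinogen family, 7 anticoagulants and 4 genes of fibrinolysis. Serpins were not on the list. Of the 51 genes, 39 had enough counts to be tested.

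The cells were A549, a long-established line from a human lung adenocarcinoma that the labels describe as NSCLC. The 3 vector libraries came from cells with an empty vector, labelled as wild type (WT), and the 3 shMETTL3 libraries from cells in which METTL3, the catalytic subunit of the m6A RNA methyltransferase complex, was knocked down with short hairpin RNA. The comparison asked which transcripts differed between METTL3-depleted and control cells. Both groups were the same line, grown in DMEM with serum, and the labels give no other treatment. The count columns number the knockdown libraries sh1 to sh3, and the number of hairpins and of selected clones is not given in the sources used here. The methods describe experiments in general as independently repeated, but no source used here says that these libraries came from separate cultures, so p-values measure the spread between these libraries, which may be technical.

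Complement is a cascade of plasma proteases in which C1r and C1s, or the lectin-pathway proteases MASP1 and MASP2, start the cleavage that leads to C3 and C5, while membrane and fluid-phase regulators protect host cells. Coagulation is a second cascade, in which tissue factor and the factors VII, X, V and VIII generate thrombin, thrombin turns fibrinogen into fibrin, and plasminogen activators dissolve the clot. The liver makes most of these plasma proteins, and A549 cells are known to transcribe and secrete several of them, fibrinogen included.

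The 3 chains of fibrinogen lie side by side and moved together in these libraries, and their promoters are shown here for that reason. F13B, which rose, and F2, which fell, are shown beside them because both carry the same short element. The sequences are RefSeq promoters on GRCh38.p14, from 250 bases before to 50 bases after the start for the fibrinogen chains, and from 100 bases before to 50 bases after it for the others. Capitals mark matches, on either strand, to the hepatocyte nuclear factor motif HNF1 (GTTAATNAT, or its core GTTAAT), the C/EBP motif TTGCNNAAT and the STAT motif TTCNNNGAA.
FGA, chr4:154590693-154590992, minus strand: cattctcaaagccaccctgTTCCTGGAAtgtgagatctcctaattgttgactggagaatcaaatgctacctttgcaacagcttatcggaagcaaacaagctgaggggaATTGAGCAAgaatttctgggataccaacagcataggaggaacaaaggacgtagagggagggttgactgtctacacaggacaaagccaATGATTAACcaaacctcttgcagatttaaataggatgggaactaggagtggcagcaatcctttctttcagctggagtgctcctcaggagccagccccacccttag
FGB, chr4:154562730-154563029, plus strand: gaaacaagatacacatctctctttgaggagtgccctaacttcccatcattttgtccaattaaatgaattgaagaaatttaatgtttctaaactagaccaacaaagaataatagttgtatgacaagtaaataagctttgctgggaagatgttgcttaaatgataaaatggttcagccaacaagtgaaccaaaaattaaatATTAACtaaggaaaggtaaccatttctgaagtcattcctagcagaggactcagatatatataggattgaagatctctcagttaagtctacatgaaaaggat
FGG, chr4:154612607-154612906, minus strand: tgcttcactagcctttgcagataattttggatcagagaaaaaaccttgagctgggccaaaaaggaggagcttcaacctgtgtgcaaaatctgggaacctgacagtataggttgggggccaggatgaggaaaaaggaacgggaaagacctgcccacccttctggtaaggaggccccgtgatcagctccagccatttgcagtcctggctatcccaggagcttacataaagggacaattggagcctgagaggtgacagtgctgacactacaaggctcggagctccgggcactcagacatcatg
F13B, chr1:197067211-197067360, minus strand: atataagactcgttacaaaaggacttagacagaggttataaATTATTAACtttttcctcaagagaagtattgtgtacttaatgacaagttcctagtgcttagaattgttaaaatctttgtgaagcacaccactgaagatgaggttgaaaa
F2, chr11:46719113-46719262, plus strand: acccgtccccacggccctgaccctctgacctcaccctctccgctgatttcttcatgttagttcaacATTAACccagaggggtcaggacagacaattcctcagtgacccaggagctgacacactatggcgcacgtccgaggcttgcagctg

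Promoters were found for 31 of the 39 tested genes, 41 promoters in all since some genes have several starts. The full HNF1 letters stood in FGA, F13B and C5, or 3 of the 41 promoters (7.32%), and in 0.792% of all 35116 promoters of the table. In FGA the match lay at -55 to -47 from the start, in F13B at -59 to -51 and in C5 at -69 to -61. The core GTTAAT, which the full motif contains, stood in 10 of the 41 (24.4%), from 9 genes, and in 6.88% of all promoters, among them FGB at -51 to -46 and F2 at -34 to -29. The STAT letters were also found in 10 of the 41 promoters, from 9 genes, against 7.66% of all promoters, and the C/EBP letters in 3, those of FGA, CD59 and VTN, against 2.66%. The NF-kB letters GGGNNTTCC stood in F8 and TFPI2 (6.58% of all promoters), the HNF4 letters AAAGTCCA in F10 (1.14%) and the TATA letters TATAAA in F13B, F3 and PROCR (11.5%), the one of F13B sharing its last base with the HNF1 match. FGG held none of these letters in its window. Of the genes with the full HNF1 letters, FGA and F13B rose, by 0.66 and 1.83 on the log2 scale, and C5 had a log2 fold change of 0.07 that did not pass the test. A match describes letters only, since no binding was measured.

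Library totals ran from 14931426 to 19108928 counts, so that a gene with 3 counts in a library stood at 0.150 to 0.189 CPM after TMM scaling, which is taken as the floor and covers counting error only. CPM values are counts relative to the library total multiplied by a TMM factor from edgeR, with factors of 0.920 to 0.953 in the vector and 1.05 to 1.07 in the shMETTL3 libraries. Replicates differed by more than sampling noise, with a chi-square per degree of freedom of 2.79 to 7.56 within groups and 80.4 to 99.9 across them. METTL3 itself had 887, 846 and 808 counts in vector replicates 1, 2 and 3 and 364, 399 and 307 in shMETTL3 replicates 1, 2 and 3, or 38.8% of the vector level, and the groups did not overlap (p = 0.1 in an exact two-sided permutation test, the smallest that 3 libraries against 3 can give). The epithelial markers KRT8, KRT18, KRT19, EPCAM and CDH1 were all detected, and all 5 were lower, as were 32.9% of all tested genes. Their summed level was 8981 to 9591 CPM in vector and 3927 to 4323 CPM in shMETTL3 libraries. Of 6 alveolar type 2 markers, 2 were tested, with SFTPB higher and SFTPD lower, and the list summed to 3.40 to 5.21 against 1.39 to 1.95 CPM. Markers of other cells also moved, where 66.6% of all tested genes changed. Of 6 leukocyte markers, 2 were tested and CD14 was higher, with a summed level of 0.947 to 1.68 against 6.38 to 7.87 CPM and PTPRC at 0 to 1 counts. Of 5 endothelial markers, 2 were tested and CDH5 was higher, with sums of 0.359 to 1.72 against 2.19 to 2.90 CPM. CD14 and CDH5 were low in the vector libraries and could have enough counts to be tested through the shMETTL3 libraries alone. Of 6 fibroblast markers, 2 were tested and COL1A1 was higher, with sums of 6.46 to 9.87 against 14.3 to 14.7 CPM. The part of these markers in the results was not tested. In bulk RNA, fewer cells that make a transcript and less of it per cell cannot be told apart.

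Genes counted as changed when edgeR's quasi-likelihood test, fitted over all 15125 tested genes, gave an adjusted p under 0.05 after Benjamini-Hochberg correction. By this rule 30 of the 39 tested complement and coagulation genes changed, or 76.9%, where 66.6% of all tested genes did. Among them 21 were higher in shMETTL3 cells, a call that 33.7% of all tested genes had, and 9 were lower, as were 32.9% of all tested genes. A called change of at least 1 on the log2 scale was seen for 17 of the 39 genes, 11 higher and 6 lower, against 17.6% of all tested genes. For 33 of the 39 the libraries of the 2 groups were fully separate, against 69.4% of all tested genes. The median log2 fold change was 0.34 over the 39 genes and 0.0022 over all genes tested. Among the 14 tested complement genes 8 were higher and 3 lower, and among the 25 others 13 were higher and 6 lower. Genes that are low in 1 group, such as MASP2 and A2M, can pass the filter on low counts through the other group alone, so these counts describe the tested genes only, and no test compared the list with other genes.

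**Figure D1:**
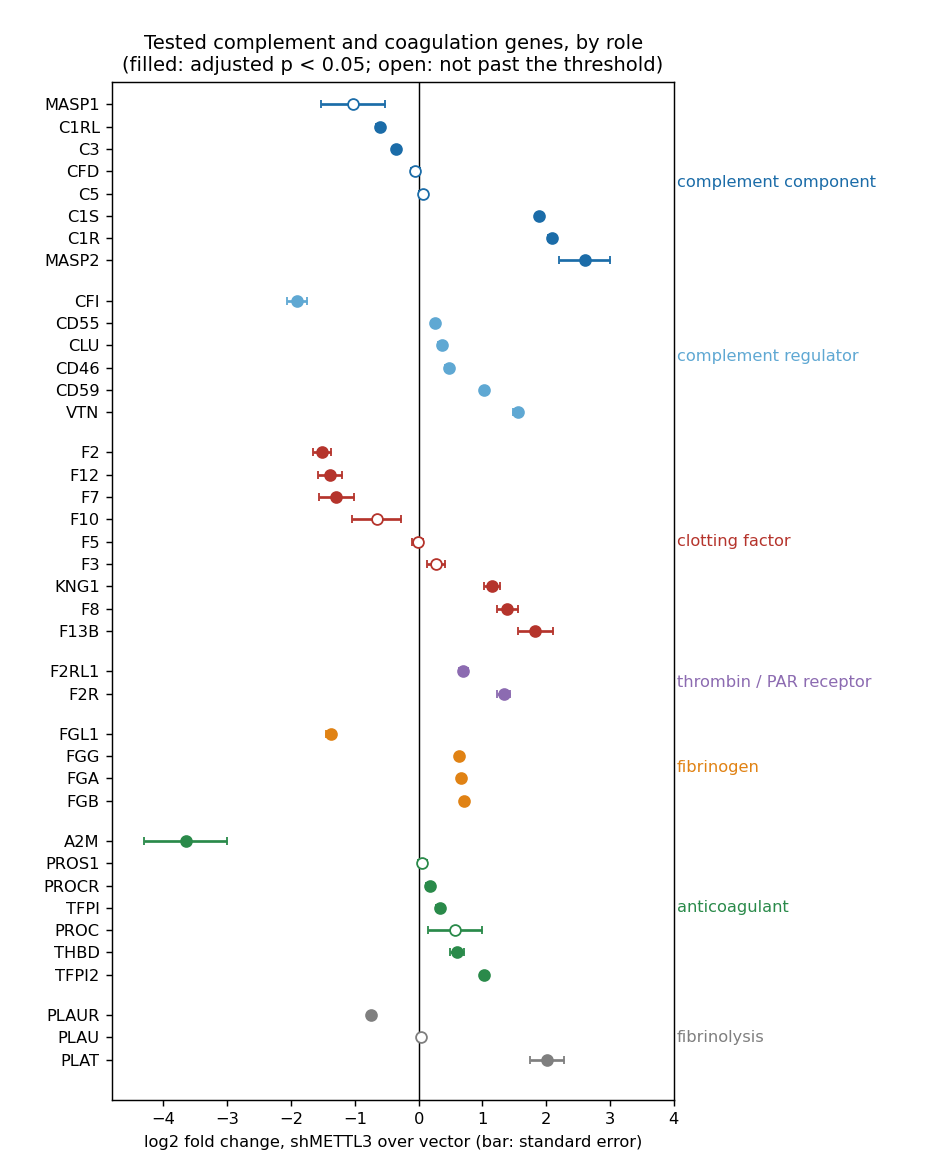
Log2 fold change of shMETTL3 over vector (x axis) for each of the 39 tested genes, grouped by role, with the standard error as a bar and filled points at an adjusted p under 0.05. Every role except the protease-activated receptors holds genes on both sides of 0, from A2M at -3.65 to MASP2 at 2.60.

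The summed level of the list was 8839 ± 65.3 CPM (SD, n = 3) in vector and 11432 ± 37.5 CPM (SD, n = 3) in shMETTL3 libraries, and a few abundant transcripts carried most of it. Per kilobase of the canonical transcript and averaged over all 6 libraries, FGA stood highest at 752 CPM per kb, followed by CD55 at 430, FGG at 404, FGB at 347, CD46 at 316, C3 at 283, CLU at 274 and FGL1 at 241. In the vector libraries the order began with FGA at 582, CD55 at 391, FGL1 at 348, C3 at 317 and FGG at 316 CPM per kb. In the shMETTL3 libraries FGA, FGG, CD55 and FGB led, at 922, 491, 468 and 430 CPM per kb, and FGL1 had dropped to 134. C1R could not be placed in this order because the annotation used gave no canonical transcript for it.

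**Figure D2:**
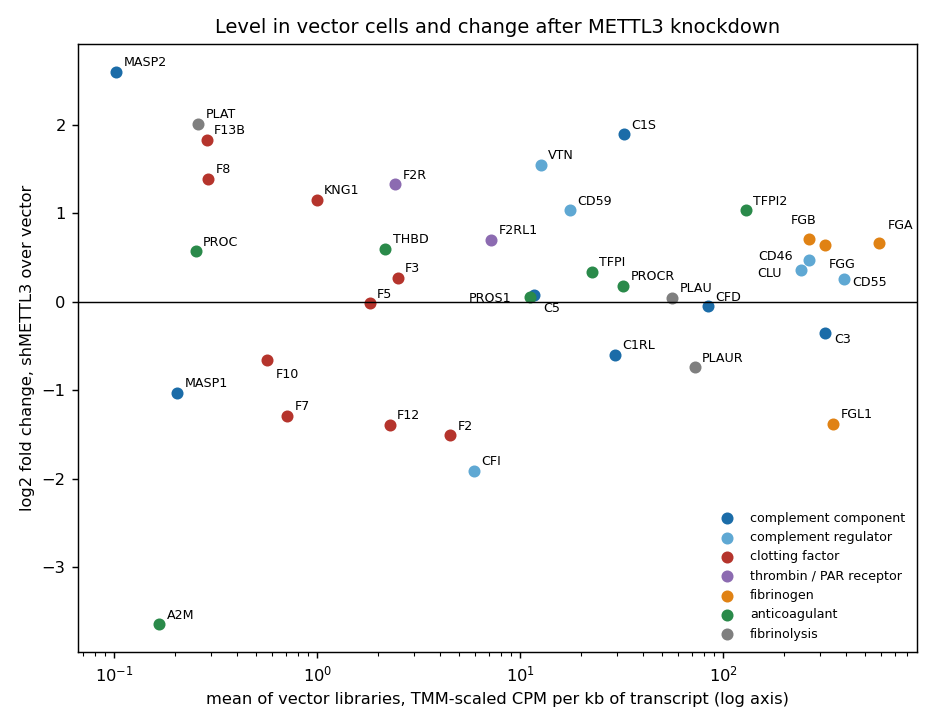
Mean level in the vector libraries in TMM-scaled CPM per kb (x axis, log scale) against the log2 fold change of shMETTL3 over vector (y axis), with 1 point per tested gene except C1R, coloured by role. Among the abundant genes on the right, the fibrinogen chains lie above 0 and C3 and FGL1 below it.

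The proteases that start the classical pathway rose strongly, whereas C3, the protein on which all pathways converge, fell slightly. Of 8 tested components, C1R, C1S and MASP2 rose, C1RL and C3 fell, and C5, CFD and MASP1 did not pass the test, so that 62.5% changed against 66.6% of all tested genes. C1R, the protease that activates C1s, had 339, 339 and 317 counts in vector replicates 1, 2 and 3 and 1552, 1693 and 1333 in the shMETTL3 replicates. Its level was 19.5 ± 0.708 CPM in vector and 82.9 ± 2.22 CPM in shMETTL3 libraries (SD, n = 3 each), a log2 fold change of 2.09 (SE 0.064, Benjamini-Hochberg adjusted p = 1.27e-20 in edgeR's quasi-likelihood test). C1S, whose product cleaves C4 and C2, had 1615, 1356 and 1453 counts in vector and 6216, 6463 and 5115 in shMETTL3 libraries. The C1S level went from 86.7 ± 4.84 to 322 ± 0.219 CPM (SD, n = 3 each), a log2 fold change of 1.89 (SE 0.053, adjusted p = 1.87e-21, same test). For both genes every shMETTL3 library was far above every vector library.

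The adjacent paralogue C1RL, a C1r-like protease, went the other way. It had 1689, 1605 and 1680 counts in vector and 1136, 1390 and 1043 in shMETTL3 libraries, a log2 fold change of -0.60 (SE 0.061, adjusted p = 1.78e-09 in edgeR's quasi-likelihood test). The groups did not overlap. In the annotation used, C1R and C1RL share exon sequence on the same strand, so reads there could be assigned to either gene or to none. Of the tested genes, 12 have exons that overlap those of another protein-coding gene. C1S, CFI, CD59 and VTN do so with an unnamed gene on the same strand, and TFPI2, C5, CFD, MASP2, F8 and F12 with a gene on the opposite strand. MASP2, the lectin-pathway protease that cleaves C4 and C2, had 7, 2 and 4 counts in vector and 30, 30 and 27 in shMETTL3 libraries, with no overlap (log2 fold change 2.60, SE 0.40, adjusted p = 1.82e-06, edgeR). Its exons overlap those of TARDBP on the opposite strand, a gene at 76.7 to 95.5 CPM, and whether the counting used strand is not given in the sources used here. TARDBP moved in the other direction, at -0.21 on the log2 scale (adjusted p = 0.00136, edgeR).

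C3 was the most abundant component. It had 28177, 26827 and 29311 counts in vector and 24384, 26763 and 20830 in shMETTL3 libraries, and after scaling 1657 ± 122 against 1303 ± 36.8 CPM (SD, n = 3 each). The fall was small, -0.35 on the log2 scale (SE 0.053, adjusted p = 2.37e-06, edgeR), though the scaled groups did not overlap. C5, which forms the membrane attack complex after cleavage, had a log2 fold change of 0.07, with a 95% interval from -0.06 to 0.20 (adjusted p = 0.366, edgeR). With scaling by library size alone C5 passed, at 0.24 (adjusted p = 0.00409, edgeR). CFD, the protease of the alternative pathway, had a log2 fold change of -0.05 with an interval of -0.18 to 0.08 (adjusted p = 0.506, edgeR). MASP1 had 7, 19 and 14 counts in vector and 10, 2 and 9 in shMETTL3 libraries, overlapping groups with a log2 fold change of -1.03 (adjusted p = 0.0666, edgeR). Leaving out 1 library at a time, the log2 fold change of MASP1 ran from -1.38 to -0.54. The call on MASP1 depended on single libraries. It passed without vector replicate 1 (-1.38, adjusted p = 0.0186, edgeR) and without shMETTL3 replicate 3 (-1.35, adjusted p = 0.0471, edgeR). CFD likewise had an adjusted p of 0.0404 at -0.14 without vector replicate 1.

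The other 9 components were too low to test. C6, C8B, C2 and C4B were listed at 0 in all 6 libraries, which allows up to 3 counts in each, and C7, C4A and CFB had at most 1 count. C8G, a chain of C8, had 1, 7 and 2 counts in vector and 5, 11 and 7 in shMETTL3 libraries. CFP, or properdin, had 6, 2 and 1 against 8, 5 and 10. The zeros of C2, CFB, C4A and C4B are not read as a lack of expression. These genes lie in the major histocompatibility complex on chromosome 6, and between TRIM27 and DAXX 150 of 163 protein-coding genes, or 92.0%, had at most 3 counts in every library, against 171 of 776, or 22.0%, on the rest of the chromosome. RPS18, a ribosomal protein gene in that region that cells in general use, had at most 1 count. This check was chosen after the values were seen, and its cause was not tested.

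All 6 complement regulators changed, 5 upwards and CFI downwards, where 66.6% of all tested genes changed and 33.7% were higher. The membrane regulators CD46, CD55 and CD59, which inactivate C3 and C4 fragments, dissociate convertases and block the membrane attack complex in that order, all rose. CD59 had 2463, 2309 and 2025 counts in vector and 5258, 5432 and 4377 in shMETTL3 libraries. Its scaled level was 133 ± 7.86 against 273 ± 2.45 CPM (SD, n = 3 each), a log2 fold change of 1.03 (SE 0.052, adjusted p = 8.24e-16, edgeR's quasi-likelihood test), and the groups lay well apart. CD55, the most abundant regulator, had 18574, 16933 and 16092 counts in vector and 23962, 24506 and 18685 in shMETTL3 libraries. After scaling the groups did not overlap, at 1012 ± 24.3 and 1213 ± 32.9 CPM (SD, n = 3 each), and the log2 fold change was 0.26 (SE 0.049, adjusted p = 3.12e-05, edgeR). CD46 changed by 0.47 on the log2 scale (adjusted p = 7.72e-09, edgeR) and CLU, the fluid-phase regulator clusterin, one of 0.36 (adjusted p = 9.15e-07, edgeR).

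VTN encodes vitronectin, an adhesive plasma protein that also keeps the membrane attack complex from inserting. It had 370, 341 and 338 counts in vector and 1118, 1211 and 993 in shMETTL3 libraries, each of the latter far higher. The log2 fold change was 1.55 (SE 0.066, adjusted p = 1.90e-17, edgeR). CFI encodes factor I, the protease that degrades C3b and C4b with CD46 or factor H as cofactor. It had 207, 234 and 155 counts in vector and 62, 52 and 57 in shMETTL3 libraries. Every shMETTL3 library was lower, at 3.13 ± 0.503 against 11.7 ± 2.26 CPM (SD, n = 3 each), and the log2 fold change was -1.91 (SE 0.16, adjusted p = 2.50e-11, edgeR).

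**Figure D3:**
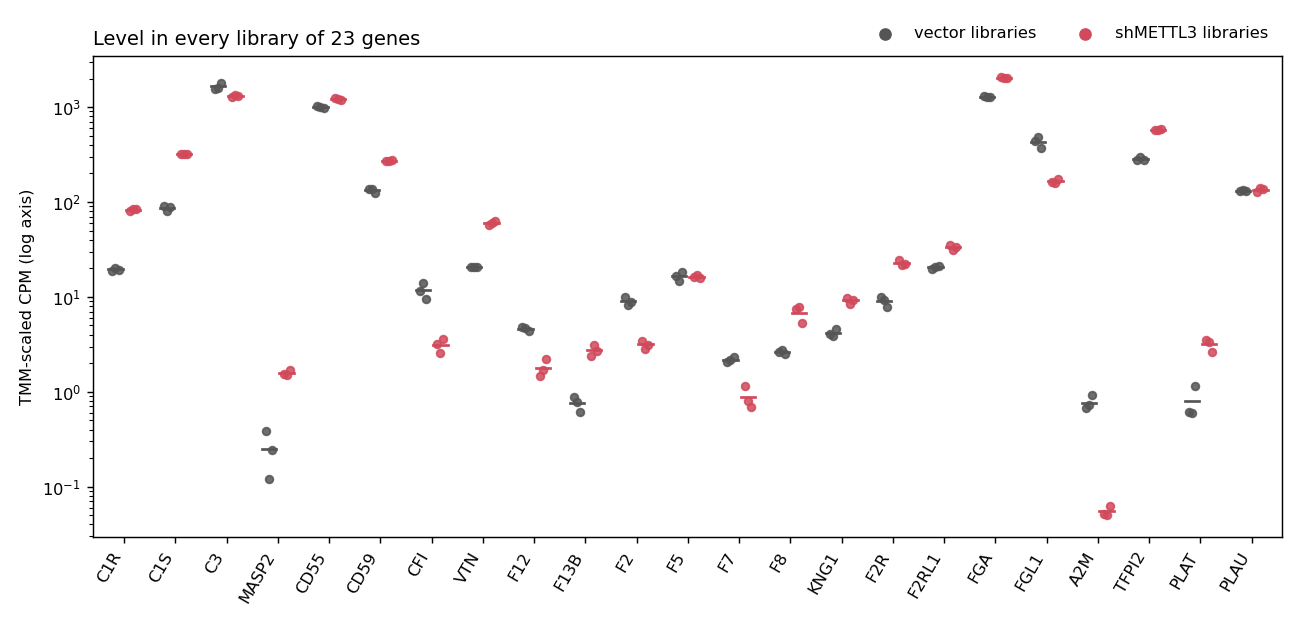
TMM-scaled CPM (y axis, log scale) in each vector (grey) and shMETTL3 (red) library for 23 genes, those called with an absolute log2 fold change of at least 1 and the most abundant of each role, with a line at each group mean. In the plot the groups overlap for F5 and PLAU and are separate for the other genes shown, and A2M in the shMETTL3 libraries lies at 1 count each.

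Of 9 clotting factors tested, F8, F13B and KNG1 rose, F2, F7 and F12 fell, and F3, F5 and F10 did not pass the test. The share that changed, 66.7%, was that of all tested genes, 66.6%. F2, which encodes prothrombin, had 177, 138 and 145 counts in vector and 67, 57 and 50 in shMETTL3 libraries, with no overlap (log2 fold change -1.51, SE 0.14, adjusted p = 4.67e-10, edgeR's quasi-likelihood test). F7, the protease that pairs with tissue factor, had 37, 36 and 38 counts in vector and 22, 16 and 11 in shMETTL3 libraries. Its log2 fold change was -1.29 (SE 0.27, adjusted p = 1.60e-04, edgeR), at levels of only 2.18 ± 0.136 and 0.877 ± 0.233 CPM (SD, n = 3 each). F12, the contact-phase protease, had 86, 78 and 72 counts in vector and 28, 34 and 35 in shMETTL3 libraries, again without overlap (log2 fold change -1.39, SE 0.19, adjusted p = 4.45e-07, edgeR). Exons of F12 overlap those of GRK6 on the opposite strand, which itself had a log2 fold change of -0.89.

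Among the factors that rose, KNG1 encodes kininogen, the cofactor of the contact phase and source of bradykinin. It had 73, 65 and 74 counts in vector and 190, 170 and 149 in shMETTL3 libraries, with every shMETTL3 library higher (log2 fold change 1.15, SE 0.13, adjusted p = 2.39e-08, edgeR). F13B, the carrier subunit of the fibrin-stabilizing factor, had 16, 13 and 10 counts in vector and 46, 62 and 43 in shMETTL3 libraries. The groups were separate, and the log2 fold change was 1.83 (SE 0.27, adjusted p = 9.78e-07, edgeR). F8, the cofactor of factor IX, had 47, 46 and 41 counts in vector and 143, 156 and 84 in shMETTL3 libraries, the lowest of which was still above every vector library (log2 fold change 1.39, SE 0.17, adjusted p = 5.34e-08, edgeR). F8 is on chromosome X, where the 439 tested genes matched to the annotation had a median log2 fold change of 0.74, 362 of them higher and 23 lower. Over all tested genes the median was 0.0022, with 33.7% higher and 32.9% lower. Exons of F8 also overlap FUNDC2 on the opposite strand, which had a log2 fold change of 0.99. The part of either in the F8 value was not tested.

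F5, the cofactor of factor Xa and the most abundant clotting factor by CPM, had 300, 248 and 297 counts in vector and 313, 339 and 254 in shMETTL3 libraries. The groups overlapped, and the log2 fold change of -0.017 had an interval of -0.19 to 0.16 (adjusted p = 0.877, edgeR). Its sign was not stable, as scaling by library size alone gave 0.16. F3, which encodes tissue factor, had 96, 97 and 98 counts in vector and 124, 157 and 100 in shMETTL3 libraries. After scaling the F3 groups did not overlap, but the log2 fold change of 0.27 (SE 0.14) did not pass (adjusted p = 0.0854, edgeR). With scaling by library size alone it did, at 0.44 (adjusted p = 0.0057, edgeR). F10 had 14, 17 and 13 counts in vector and 12, 7 and 11 in shMETTL3 libraries, with a log2 fold change of -0.66 (SE 0.38, adjusted p = 0.131, edgeR). F11 and VWF were listed at 0 in all libraries.

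Both protease-activated receptors rose, where 33.7% of all tested genes were higher. F2R, the main thrombin receptor PAR1, had 178, 155 and 128 counts in vector and 475, 430 and 354 in shMETTL3 libraries. Its scaled level was 9.01 ± 1.06 against 22.8 ± 1.63 CPM (SD, n = 3 each), a log2 fold change of 1.33 (SE 0.098, adjusted p = 2.47e-12, edgeR's quasi-likelihood test). F2RL1, or PAR2, which trypsin-like proteases and factor VIIa cleave, had 350, 346 and 349 counts in vector and 678, 632 and 529 in shMETTL3 libraries. The log2 fold change was 0.70 (SE 0.074, adjusted p = 3.86e-09, edgeR). For both receptors all shMETTL3 libraries were above all vector libraries.

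The fibrinogen chains rose together, while the fibrinogen-like gene FGL1 fell. FGA, which encodes the alpha chain, had 23318, 21574 and 20616 counts in vector and 39644, 40898 and 32023 in shMETTL3 libraries. Scaled, these were 1285 ± 18.6 and 2037 ± 18.3 CPM (SD, n = 3 each), a log2 fold change of 0.66 (SE 0.048, adjusted p = 1.53e-12, edgeR's quasi-likelihood test), with no overlap. FGB, the beta chain, had 18195, 15735 and 14912 counts in vector and 30709, 31697 and 24280 in shMETTL3 libraries, a log2 fold change of 0.71 (SE 0.051, adjusted p = 1.44e-12, edgeR). FGG, the gamma chain, had 12322, 11141 and 9970 against 19432, 20514 and 16253 counts, a log2 fold change of 0.64 (SE 0.051, adjusted p = 1.78e-11, edgeR). The changes of the 3 chains lay within 0.07 of each other. Summed, the chains made up 2896 ± 105 CPM in vector and 4621 ± 44.5 CPM in shMETTL3 libraries (SD, n = 3 each).

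FGL1 is a secreted protein with a fibrinogen-like domain that is made by hepatocytes and does not form clots. It had 7823, 8035 and 6099 counts in vector and 3154, 3212 and 2750 in shMETTL3 libraries. The level went from 430 ± 53.8 to 166 ± 6.79 CPM (SD, n = 3 each), a log2 fold change of -1.38 (SE 0.066, adjusted p = 2.08e-16, edgeR), and all shMETTL3 libraries lay below the vector libraries. It is on chromosome 8 in GRCh37, away from the fibrinogen cluster on chromosome 4.

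Of the 7 anticoagulants, TFPI2, TFPI, THBD and PROCR rose, A2M fell, and PROS1 and PROC did not pass the test, so that 71.4% changed against 66.6% of all tested genes. TFPI2, a Kunitz-type inhibitor of plasmin and of the tissue factor pathway, had 5010, 4926 and 4529 counts in vector and 11018, 11529 and 9390 in shMETTL3 libraries. All shMETTL3 libraries were higher, at 571 to 591 against 278 to 295 CPM, a log2 fold change of 1.03 (SE 0.049, adjusted p = 2.63e-16, edgeR's quasi-likelihood test). TFPI, the inhibitor of factor Xa and of tissue factor with factor VIIa, changed by 0.34 on the log2 scale (adjusted p = 3.39e-05, edgeR). THBD, or thrombomodulin, which turns thrombin towards protein C, changed by 0.60 (adjusted p = 2.55e-05, edgeR). PROCR, the endothelial protein C receptor, changed by 0.18 (adjusted p = 0.0135, edgeR), and lost the call without shMETTL3 replicate 3, where it was 0.13 (adjusted p = 0.10).

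A2M, the broad protease trap alpha-2-macroglobulin, had 12, 12 and 15 counts in vector and 1 count in each shMETTL3 library. The vector level was 14.1 times higher, with a 95% counting interval of 4.48 to 71.3, and the fitted log2 fold change was -3.65 (SE 0.65, adjusted p = 9.46e-06, edgeR). At these counts the size of the fall is poorly known. PROS1, which encodes protein S, had a log2 fold change of 0.055 with an interval of -0.08 to 0.19 (adjusted p = 0.50, edgeR). With scaling by library size alone PROS1 passed, at 0.23 (adjusted p = 0.00923, edgeR), and without vector replicate 3 its sign turned, at -0.012. PROC, which encodes protein C, had 11, 7 and 5 counts in vector and 12, 13 and 12 in shMETTL3 libraries, a log2 fold change of 0.57 (SE 0.42, adjusted p = 0.233, edgeR).

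Of the 3 tested genes of fibrinolysis, PLAT rose, PLAUR fell and PLAU did not pass the test. The share that changed, 66.7%, was that of all tested genes, 66.6%. PLAT, which encodes tissue plasminogen activator, had 11, 10 and 19 counts in vector and 68, 67 and 42 in shMETTL3 libraries, so that the groups were separate. Its log2 fold change was 2.01 (SE 0.27, adjusted p = 2.25e-07, edgeR's quasi-likelihood test), at 0.792 ± 0.323 against 3.17 ± 0.463 CPM (SD, n = 3 each). PLAU, which encodes urokinase, was far more abundant, with 2361, 2222 and 2111 counts in vector and 2486, 2789 and 2189 in shMETTL3 libraries. The PLAU groups overlapped, and the log2 fold change of 0.042 had an interval of -0.06 to 0.14 (adjusted p = 0.479, edgeR), though scaling by library size alone gave 0.22 (adjusted p = 0.000759). PLAUR, the urokinase receptor, had 1684, 1660 and 1679 counts in vector and 1167, 1143 and 956 in shMETTL3 libraries, a log2 fold change of -0.74 (SE 0.056, adjusted p = 4.91e-12, edgeR). PLG, which encodes plasminogen, had at most 2 counts in any library.

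Some proteins of these cascades act together, and others have related functions. Within a library, the ratio of 2 such genes depends on scaling only through the 0.1 CPM added to each value before taking logs. Ratios were set for 13 pairs, of which 11 had both genes tested, and the 2-sided exact permutation tests, which cannot go below p = 0.1 with 3 libraries against 3, were adjusted over the 11. For the fibrinogen chains the ratios of the groups overlapped in all 3 pairings. FGA over FGB was 1.34 in vector and 1.30 in shMETTL3 libraries (exact permutation test, p = 0.4, adjusted 0.489), FGG over FGB 0.684 and 0.650 (exact p = 0.2, adjusted 0.275) and FGA over FGG 1.96 and 2.0 (exact p = 0.5, adjusted 0.50), all as ratios of CPM. C1R over C1S also overlapped, at 0.226 and 0.258 (exact p = 0.2, adjusted 0.275), as did F3 over TFPI, at 0.0669 and 0.0628 (exact p = 0.5, adjusted 0.50).

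The other 6 pairs did not overlap between groups, each with an exact permutation p of 0.1 and an adjusted p of 0.183. With 3 libraries against 3 no pair could pass the threshold, so these tests cannot decide whether a ratio changed. CD59 over CD46 was 0.151 in vector and 0.225 in shMETTL3 libraries, a log2 difference of 0.57, and CD55 over CD46 was 1.15 and 0.998. TFPI2 over TFPI was 3.27 and 5.26, a log2 difference of 0.69. PLAU over PLAUR was 1.33 and 2.28, and PLAT over PLAU was 0.00652 and 0.0240, the widest difference of the 11 pairs at 1.88 on the log2 scale, though PLAT is so low that adding 1 CPM in place of 0.1 gave 1.19. F2RL1 over F2R went from 2.27 to 1.46. The pairs CFB with C2 and C3 with CFB could not be formed because CFB was not tested.

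**Figure D4:**
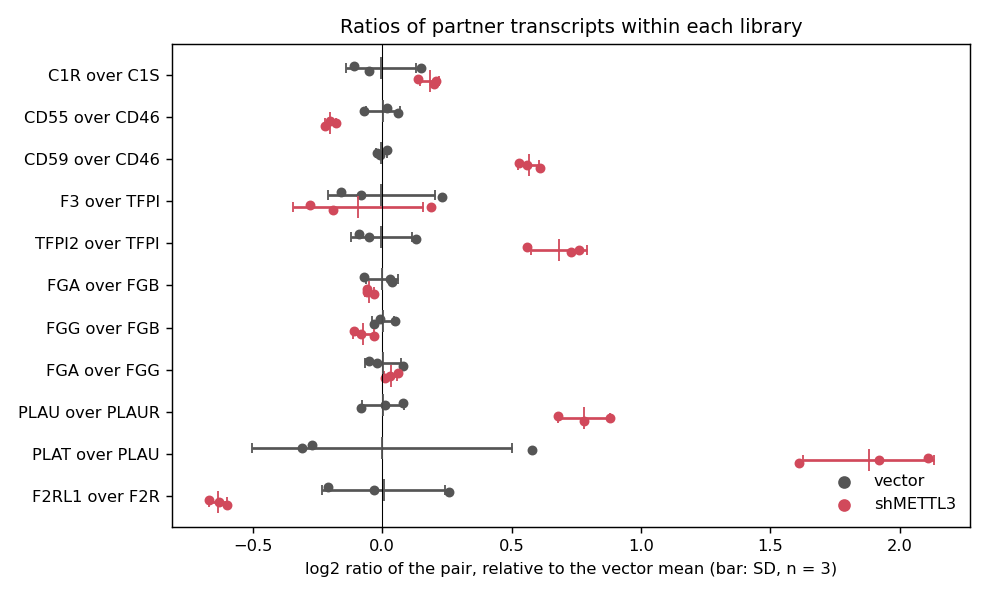
Log2 ratio of the CPM of both genes of a pair within each library, relative to the mean of the vector libraries (x axis), for the 11 pairs tested, with bars for the SD over 3 libraries. The libraries of both groups overlap for the 3 fibrinogen pairs, whereas PLAT over PLAU and PLAU over PLAUR are shifted to the right in every shMETTL3 library.

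Several of these genes are neighbours in the genome, and the 20 nearest other tested genes show what the region around them did. Of all tested genes, 33.7% were higher and 32.9% lower. On GRCh37, FGB, FGA and FGG lie on chromosome 4 from 155484163 to 155534119, and their 20 neighbours had a median log2 fold change of -0.025, with 6 higher and 6 lower. C1S, C1R and C1RL lie on chromosome 12 from 7096351 to 7261834. There the 20 neighbours had a median of -0.48, with 14 lower and 1 higher, P3H3 at 1.62, so that C1R and C1S rose where most genes around them fell, and C1RL fell as they did. CD55 and CD46 lie on chromosome 1 from 207494864 to 207968858 among neighbours with a median of -0.43, 11 lower and 2 higher. F2R and F2RL1, on chromosome 5 from 76011951 to 76131140, had neighbours with a median of 0.025, 7 higher and 6 lower, and F7 and F10, on chromosome 13 from 113760102 to 113803843, had neighbours with a median of 0.023, also 7 higher and 6 lower.

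Around some of the other genes the neighbours moved both ways, as for VTN with 9 of 20 higher and 7 lower. The genes given next were picked because their neighbours moved mainly one way. Of all tested genes, 33.7% were higher and 32.9% lower. F12, on chromosome 5, had 14 of its 20 neighbours lower and 3 higher, with a median log2 fold change of -0.51 against -1.39 for F12, and F2, on chromosome 11, had 13 lower and 4 higher, with a median of -0.20 against -1.51 for F2. Around PROCR, CFD, C3 and CLU, 12 to 13 of the 20 neighbours were lower and 2 to 5 higher, while around CFP 16 were higher and 1 lower. TFPI2, on chromosome 7 from 93514708 to 93520065, had 17 of its 20 neighbours higher and 1 lower, with a median log2 fold change of 0.25 against 1.03 for TFPI2. C5, on chromosome 9 from 123695265 to 123837473, had 18 higher and 1 lower with a median of 0.54, above its own 0.07. F8, on chromosome X from 154064063 to 154255215, had 17 higher and none lower with a median of 0.74. Copy number was not measured, and the part of the regions in these values was not tested.

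**Figure D5:**
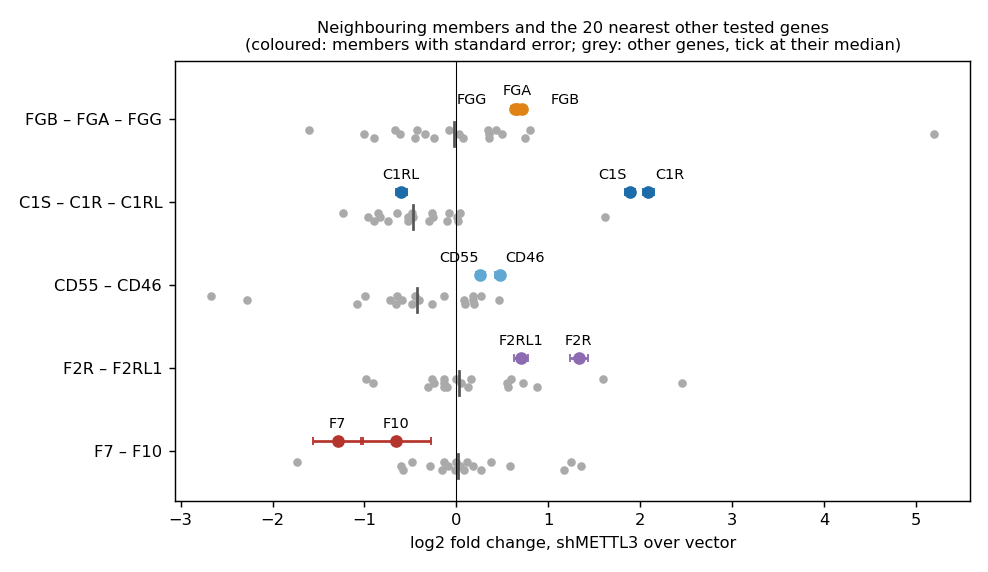
Log2 fold change of shMETTL3 over vector (x axis) for 5 groups of neighbouring genes (coloured, with standard errors) and for the 20 nearest other tested genes of each group (grey, tick at the median). The fibrinogen chains, C1S and C1R lie to the right of their neighbours' medians of -0.025 and -0.48.

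Of 36 further complement genes, 13 were tested, 7 rose and 4 fell, or 84.6% changed against 66.6% of all tested genes, with a median log2 fold change of 0.71. Some rising genes, such as ITGAX, could pass the filter on low counts through the shMETTL3 libraries alone. The share and the median are therefore no evidence of a common direction. The largest rises were those of ITGAX, a subunit of complement receptor CR4, with 2, 1 and 1 counts in vector and 63, 60 and 47 in shMETTL3 libraries (39.2 times higher, 95% counting interval 15 to 146), and of C5AR2, a C5a receptor, at 2.61 (adjusted p = 3.25e-08, edgeR). The largest falls were in the chains of C4b-binding protein, C4BPB at -0.99 (adjusted p = 0.00869, edgeR) and C4BPA at -0.65 (adjusted p = 4.74e-10, edgeR). C4BPB lost its call without shMETTL3 replicate 1, at -0.76 (adjusted p = 0.0643). Of 27 further coagulation and fibrinolysis genes, 17 were tested, 5 rose and 5 fell, with a median of 0.09. The share that changed, 58.8%, was below the 66.6% of all tested genes. These rises were led by TBXAS1, thromboxane synthase, at 2.64 and F2RL2, a thrombin receptor, at 1.59, and PLGRKT, a plasminogen receptor, was among the falls at -0.56.

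Among 31 other plasma proteins made by the liver, 11 were tested and all 11 rose, where 33.7% of all tested genes were higher, with a median of 1.3 on the log2 scale. Some passed the filter on low counts through the shMETTL3 libraries alone, so this count is no evidence of a common direction. AGT, angiotensinogen, had 0 counts in each vector library and 12, 29 and 9 after knockdown, which is at least 5.13-fold higher when the vector libraries are set to 3 counts each. SAA1, serum amyloid A, rose by 2.93 on the log2 scale (adjusted p = 2.64e-08, edgeR). ALB, albumin, had 1 to 5 counts in any library, and was not tested. Of 26 transcription regulators and cytokines that act on such genes, 22 were tested, 10 rose and 6 fell, or 72.7% changed against 66.6% of all tested genes. IL6 had 2, 2 and 3 counts in vector and 83, 96 and 90 in shMETTL3 libraries (35.5 times higher, 95% counting interval 17 to 89). IL1B had 6, 8 and 1 counts in vector and 45, 33 and 35 in shMETTL3 libraries, a log2 fold change of 2.77. Both IL6 and IL1B could pass the filter on low counts through the shMETTL3 libraries alone. FOXA1 fell by 1.15 on the log2 scale (adjusted p = 6.67e-15, edgeR). Whether these factors act on the complement and coagulation genes was not tested.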

How the data were processed

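RNA-seq read counts per gene were available for 3 vector and 3 shMETTL3 libraries of A549 cells. The authors mapped reads to hg19 with HISAT2 and counted them with HTSeq (2.2.1 and 0.13.5 in the submitters' processing notes), and deposited whole-number counts without normalization for 57781 rows. The annotation and strand setting are not given in the sources used here. No sample column was left unused. Groups and replicate numbers came from the sample titles.

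In R 4.3.3 with edgeR 4.0.16, counts were scaled by TMM, filtered with filterByExpr and tested with glmQLFit and glmQLFTest on the group alone, with Benjamini-Hochberg adjustment over 15125 genes. The code was tested on simulated data. Ratios used log2(CPM + 0.1) and a two-sided exact permutation test. The counting interval of a ratio is exact and conditional on the sum of both counts, and the 95% interval of a log2 fold change assumes normal error. The 20 nearest tested genes, positions and transcript lengths came from GENCODE on GRCh37, which matched 13688 tested genes (90.5%), and promoters from RefSeq on GRCh38.p14.

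The members and lists were chosen with earlier results of these data known. Genes in the plot of levels by library are those called with an absolute log2 fold change of at least 1 and the most abundant gene of each role by CPM. Of the other lists, the 2 largest called rises and falls are named, except for some that are not reported here. Other genes given with values were chosen after their values were seen. Alternatives were RLE scaling, library size alone, 2 other filters, DESeq2 1.42.0, a replicate block, other thresholds and leaving out each library. Same-numbered libraries did not deviate together, so the numbers were not taken to pair them.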

Additional observations from a re-analysis of the deposited data

How the results depend on the processing

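Over 463 fits of single genes, 449 kept the direction and call of the 39 tested complement and coagulation genes, and 31 genes did so in every alternative. The exceptions were genes with small changes or few counts. The sign turned for CFD with scaling by library size alone (0.13) and without vector replicate 2 (0.012), for F5 with scaling by library size alone (0.16), with at least 10 counts in every library (0.001) and without vector replicate 3 (0.047), and for PROS1 without vector replicate 3 (-0.012). None of these values passed the threshold. Leaving out 1 library at a time gave CFD -0.14 to 0.012, F5 -0.096 to 0.047 and PROS1 -0.012 to 0.13. Scaling by library size alone, which moved the median of all genes by 0.17, also brought C5 (0.24), F3 (0.44), PROS1 (0.23) and PLAU (0.22) past the threshold and raised the median over the list from 0.34 to 0.51 (0.30 to 0.38 with 1 library left out), with 25 genes higher and 9 lower. Under it 65.8% of all changed genes were higher, against 50.6% under TMM. A minimum absolute log2 fold change of 1 left 17 of the 30 changed genes. With at least 10 counts in every library, 7 of the further complement genes and 7 of the other liver genes were called, against 11 of each, as fewer genes were tested. DESeq2 called 30 genes of the list, 21 higher and 9 lower, and 9234 genes in all. Leaving out 1 library gave 30 to 32 changed genes of the list and 9410 to 10072 in all.

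The replicate block gave the list 30 changed genes and changed no call on it, and gave 10111 changed genes in all, against 10067 without it. The deviations of same-numbered libraries correlated at 0.0516, -0.0066 and 0.0333, and not every library correlated best with its own number. The numbers therefore do not pair the libraries. Genes with few counts, such as MASP1, MASP2, F10, PROC and A2M, are limited by depth, and 12 genes of the list could not be tested.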
